A study of Sus scrofa with 207 samples.

Results

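LONP1, TIMM17B and ABHD10 are nuclear genes whose proteins work inside mitochondria, as a protease, an import channel subunit and a hydrolase. They were followed across muscle arrays of 207 pigs as 3 of 6765 genes that had a probe set with a single gene symbol in the array annotation. The members were the probe sets whose only symbol was LONP1, TIMM17B or ABHD10, which gave 1 probe set per gene. The genes were picked because their transcripts were higher in animals with higher drip loss, so their relation to drip loss is described here without a test.

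Most mitochondrial proteins are made in the cytosol and pass through a pore in the outer membrane and then through the TIM23 channel of the inner membrane. TIMM17B is a subunit of that channel. Inside, in the matrix, the ATP-dependent protease LONP1 removes damaged or misfolded proteins and, in mammalian cells, takes part in the upkeep of mitochondrial DNA. ABHD10 is a mitochondrial serine hydrolase that takes acyl groups off proteins, and in human cells the peroxidase PRDX5 is a described substrate. Muscle relies on mitochondria for sustained ATP supply, and the respiratory chain that makes this ATP is built largely from imported subunits.

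The animals were commercial crossbred pigs of the cross Pix(DLxDE), a single group for which the labels name no treatment, and were slaughtered at a mean weight of 110 kg, when the muscle was sampled. Each animal gave 1 Affymetrix Porcine Genome Array and came with a pair of traits. Drip loss, the share of weight lost by a piece of longissimus muscle hung in the cold, averaged 5.37 ± 2.22% (SD, n = 207) and ran from 1.45 to 10.82%. Fat area over the same muscle averaged 15.0 ± 3.15 cm2 (SD, n = 207 less 8 without a value) and ran from 8.1 to 26.7 cm2. Sex, age, sire and day of slaughter were not used here, apart from a component of Y-linked transcripts in an alternative fit on fat area.

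Expression values are the deposited log2 values per probe set. They had a floor of 4, which neither LONP1, TIMM17B nor ABHD10 touched on any array, and array medians between 5.96 and 6.18. There were 24 arrays that correlated poorly with the rest (median r down to 0.944, against 0.978 for a typical array), and these low-correlation arrays are kept apart in several values below. Drip loss averaged 4.20 ± 1.55% (SD, n = 24) in the animals behind them and 5.53 ± 2.25% (SD) in the remaining animals. The title numbers of the animals were cut here at each 100, which gave 10 blocks. They also formed a lower series and a higher one with a gap between, the higher holding 33 animals. The labels name no blocks, and what the title numbers stand for is not given. As a check of the tissue, the mean level of 6 measured skeletal muscle markers had a median of 13.5 log2 units both in the 52 animals with the highest drip loss and in the 52 with the lowest.

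LONP1 was the steadiest of the genes from animal to animal. Its log2 level was 8.97 in the lowest animal, 9.54 in the median animal and 9.86 in the highest, a 1.85-fold range over 207 animals. The SD was 0.146 log2 units. The brighter probe sets, 11967 with a mean over the array-wide median, held 1.79% with a smaller SD, and the median SD of those probe sets was 0.261. TIMM17B varied more. Its log2 level was 8.23 in the lowest animal, 9.16 in the median and 9.78 in the highest, a 2.93-fold range, and its SD was 0.206, with 22.2% of the brighter probe sets below it. ABHD10 had the widest range of the members, with a log2 level of 6.42 in the lowest animal, 7.82 in the median and 8.38 in the highest, which is 3.89-fold. Its SD of 0.247 was close to the typical one, with 43.5% of the brighter probe sets below it. Levels of different probe sets cannot be set against each other on this array, so the order of abundance of these genes is not given. Whether the TIMM17B probe set also binds transcripts of its close relative TIMM17A was not tested, and TIMM17A had no single-symbol probe set.

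Values on the low-correlation arrays reached further down. LONP1 was 8.97, 9.36 and 9.86 log2 units in the lowest, median and highest of the 24 low-correlation arrays, against 9.24, 9.55 and 9.84 in the others. TIMM17B was 8.23, 8.94 and 9.64 on the low-correlation arrays, against 8.66, 9.19 and 9.78 on the others. ABHD10 was 6.42, 7.56 and 7.90 on the low-correlation arrays, against 7.0, 7.84 and 8.38 on the others. The lowest animal for each of the genes was thus on such an array, while the ranges of both sets of arrays overlapped widely. The 10 number blocks accounted for 9.10% of the variance of LONP1, 10.0% of that of TIMM17B and 9.59% of that of ABHD10.

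The animals were ordered by drip loss into 4 bins of 51 or 52 animals. In animals with high drip loss the transcripts of all 3 genes were slightly more abundant, which is the pattern they were chosen for. LONP1 was 9.26, 9.59 and 9.84 log2 units in the lowest, median and highest of the 52 animals with the highest drip loss (7.22 to 10.82%), against 8.97, 9.48 and 9.68 in the 52 with the lowest (1.45 to 3.58%). TIMM17B was 8.79, 9.20 and 9.78 in the high drip loss bin, against 8.23, 9.13 and 9.54 in the low bin. ABHD10 was 7.52, 7.90 and 8.38 in the high bin, against 6.42, 7.72 and 8.16 in the low bin. The bins overlapped over most of their range for every gene, and the low bin reached further down.

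From the lowest to the highest bin of drip loss, the median log2 level of LONP1 was 9.48, 9.53, 9.59 and 9.59. That of TIMM17B was 9.13, 9.09, 9.24 and 9.20, and that of ABHD10 was 7.72, 7.80, 7.90 and 7.90. For none of the genes was the median of the top bin above that of the third.

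**Figure D1:**
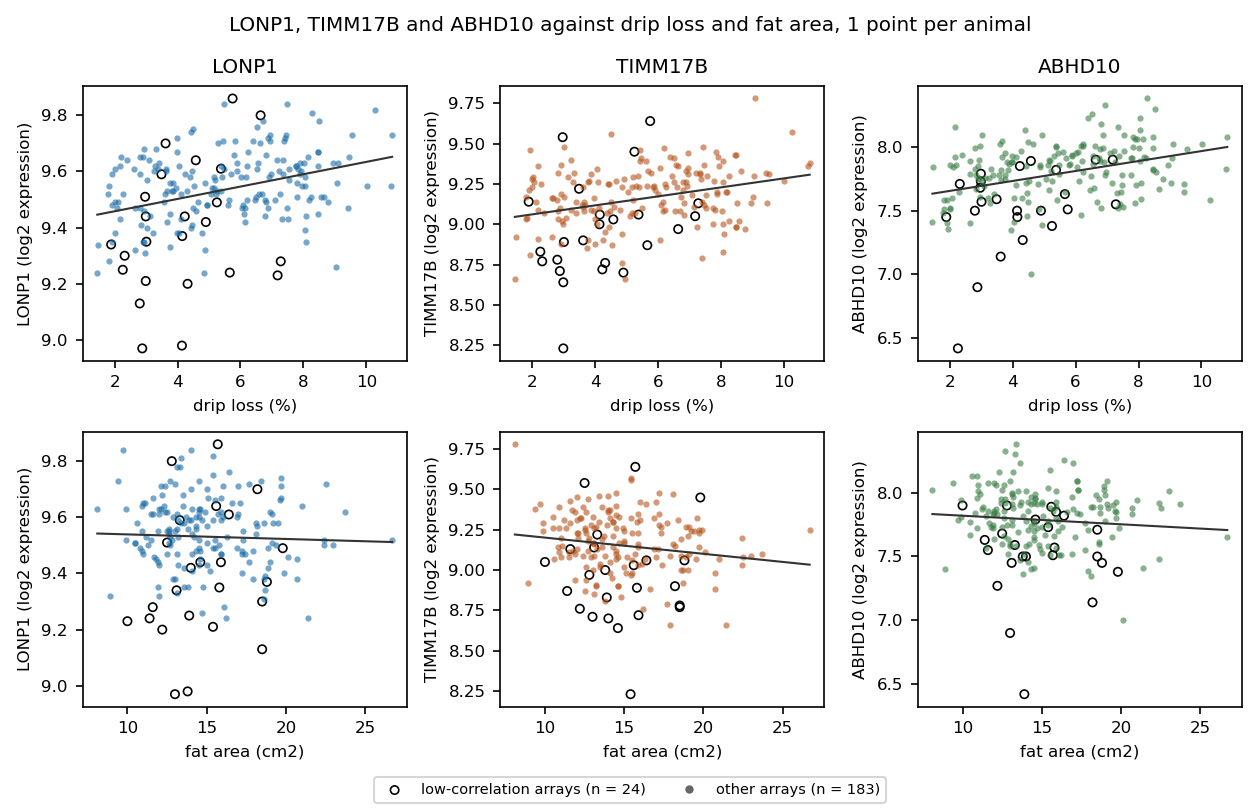
Log2 expression of LONP1, TIMM17B and ABHD10 (y axes) against drip loss in percent (upper panels, 207 animals) and fat area in cm2 (lower panels, 207 less 8 animals), 1 point per animal with the least squares line. Open circles are the 24 low-correlation arrays and filled points the other arrays. Lines slope up with drip loss, are flat or slope slightly down with fat area, and several of the lowest animals are open circles.

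Per SD of drip loss, LONP1 was higher by 0.049 ± 0.0099 log2 units (SE, n = 207), or 3.43% of its level. TIMM17B was higher by 0.062 ± 0.014 log2 units, or 4.38%, and ABHD10 by 0.087 ± 0.016 log2 units, or 6.18%. In this fit 1.94% of the 23935 tested probe sets passed in the upward and 2.67% in the downward direction, and since the members were taken from among them nothing is read from their passing. Drip loss went with 11.1% of the variance of LONP1, 8.99% of that of TIMM17B and 12.3% of that of ABHD10. In bulk muscle, a change in the make-up of the tissue and a change in RNA per cell cannot be told apart.

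These slopes stayed positive under each of the 15 alternative settings, and their size depended on which arrays and covariates were used. With the number blocks in the fit the slopes were 0.043 for LONP1, 0.061 for TIMM17B and 0.071 for ABHD10. Without the low-correlation arrays they were 0.037, 0.046 and 0.065 in the same order, and with 5 principal components of all probe sets as covariates they were 0.022, 0.025 and 0.041. Of all probe sets 0.217% passed upward with blocks and 0.259% without those arrays. Animals of the lower number series gave 0.043, 0.064 and 0.081, and the 33 of the higher series 0.078, 0.072 and 0.103. With the difference between 3' and 5' control signals, a sign of RNA quality, as a covariate the slopes were 0.049, 0.055 and 0.080.

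**Figure D2:**
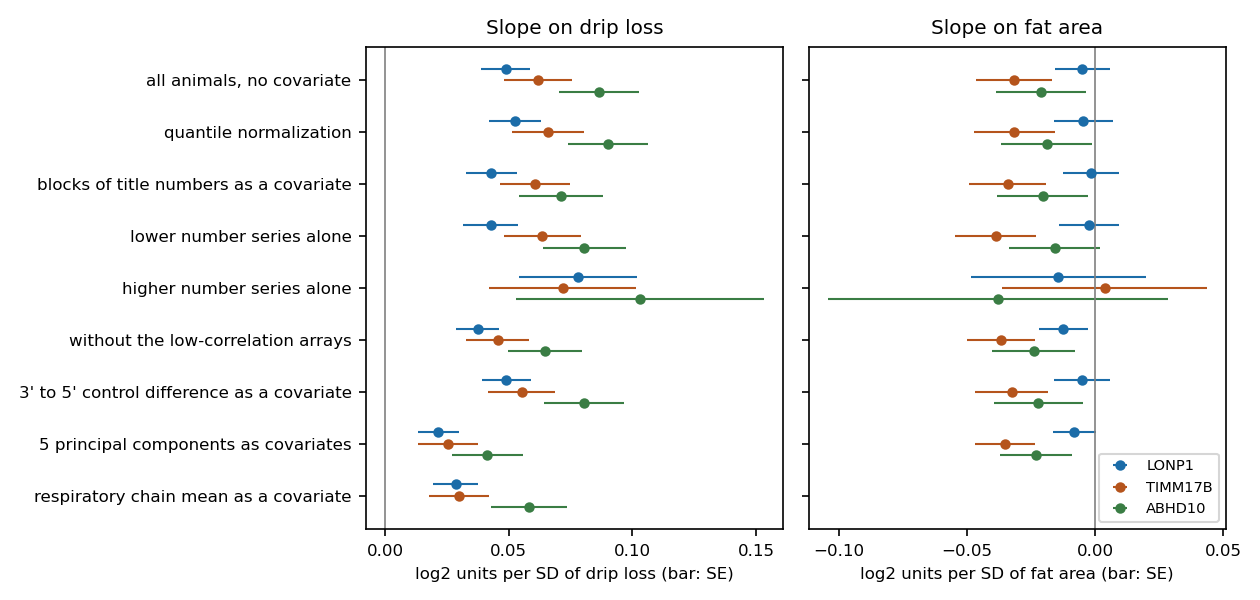
Slopes of LONP1, TIMM17B and ABHD10 on drip loss (left) and on fat area (right), in log2 units per SD of the trait, with bars of 1 SE, under the setting named at each row. Drip loss slopes lie above 0 in every row and are smallest with 5 principal components (0.022 to 0.041), and fat area slopes lie near 0 or below. The respiratory chain mean was a covariate for drip loss only.

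Fat area, which played no part in choosing the genes, showed no relation to them that passed the test. LONP1 had medians of 9.55, 9.56, 9.59 and 9.50 log2 units from the lowest to the highest of 4 bins of fat area. TIMM17B had 9.23, 9.17, 9.10 and 9.12, and ABHD10 had 7.86, 7.75, 7.80 and 7.85. The slope of LONP1 was -0.0051 ± 0.011 log2 units per SD of fat area (SE, n = 207 less 8, limma adjusted p = 0.963), with a 95% interval from -0.026 to 0.016. The slope of ABHD10 was -0.021 ± 0.018 (adjusted p = 0.875), with an interval from -0.056 to 0.014. TIMM17B had the largest slope of the members, -0.032 ± 0.015 (unadjusted p = 0.0328, adjusted p = 0.650), with an interval from -0.061 to -0.0026. So 0 of 3 passed in limma and 1 of 3 had an unadjusted p under 0.05, where 0.121% of all tested probe sets passed, 0.046% upward and 0.0752% downward. In the 25 animals of the higher series with a fat area the slope of TIMM17B was 0.0036 ± 0.040. Under the other alternatives it was negative, from -0.039 in the lower series to -0.026 with drip loss as a covariate. The lowest limma adjusted p among the alternatives was 0.163, with 5 principal components, so it passed in none.

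The members varied together across animals. LONP1 and TIMM17B had a Pearson r of 0.515 and a Spearman rho of 0.422 (permutation p = 1e-05 for both, two-sided, n = 207). LONP1 and ABHD10 had r of 0.468 and rho of 0.424 (permutation p = 1e-05 for both). TIMM17B and ABHD10 were less closely tied, with r of 0.332 (permutation p = 1e-05) and rho of 0.287 (permutation p = 2e-05). Adjusted over the 3 pairs these p-values were 1e-05 for r and 1.5e-05 to 2e-05 for rho, and 1e-05 is the smallest that 100000 permutations can give.

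Against the whole array these values were high for LONP1 with each partner. Of all tested probe sets, 0.806% had an r with LONP1 at least as high as that of TIMM17B and 1.60% at least as high as that of ABHD10. Seen from ABHD10, 0.234% of probe sets reached the r of LONP1 and 3.76% that of TIMM17B. Seen from TIMM17B, 5.54% of probe sets reached the r of ABHD10, so this pair stood out least. These shares count the dimmer probe sets too, while the members are among the brighter ones. In a narrower ranking of 6208 probe sets, ABHD10 held rank 285 for LONP1 and rank 883 for TIMM17B. TIMM17B held rank 606 for ABHD10, and LONP1 stood higher there. LONP1 and TIMM17B each stood higher for the other than ABHD10 did.

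Because all were picked on the same trait, the pairs were also computed with drip loss removed from both measures, which gave r of 0.462 for LONP1 with TIMM17B, 0.398 for LONP1 with ABHD10 and 0.254 for TIMM17B with ABHD10. Without the 2 animals farthest from the median of the first gene they were 0.504, 0.424 and 0.339. Without the low-correlation arrays r was 0.435, 0.411 and 0.297. Centred within number blocks it was 0.531, 0.426 and 0.337, and within single blocks r was positive in 10 of 10 blocks for either pair with LONP1 (0.174 to 0.716 with TIMM17B, 0.057 to 0.687 with ABHD10) and in 9 of 10 for TIMM17B with ABHD10 (-0.026 to 0.671). With 5 principal components removed, r was 0.265 for LONP1 with TIMM17B (permutation adjusted p = 9e-04) and 0.211 for LONP1 with ABHD10 (adjusted p = 0.0045), and the r of TIMM17B with ABHD10 dropped to 0.063 (adjusted p = 0.356).

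**Figure D3:**
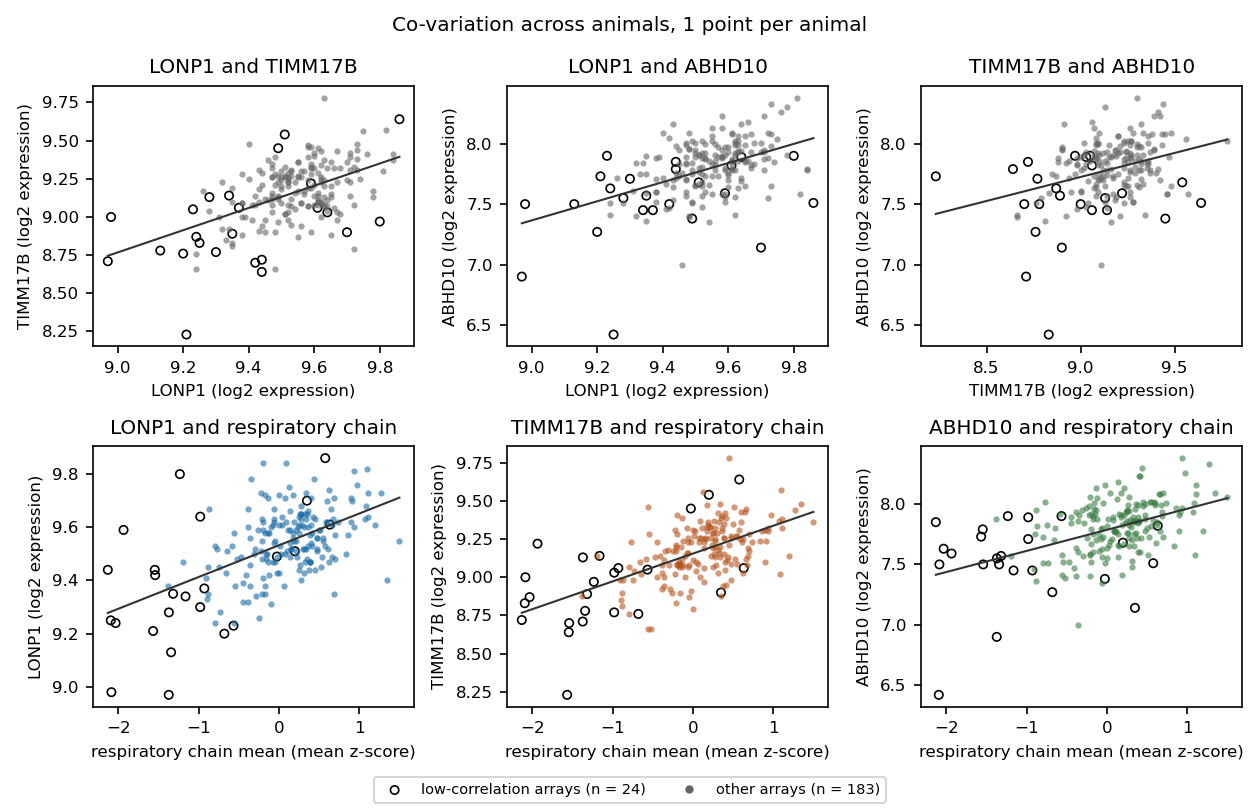
Upper panels plot the log2 expression of each pair of the genes and lower panels that of each gene against the respiratory chain mean (mean z-score of 60 genes), 1 point per animal with the least squares line. Open circles are the 24 low-correlation arrays and filled points the other arrays. All lines slope upward, with r of 0.515, 0.468 and 0.332 in the upper panels and 0.549, 0.593 and 0.475 in the lower ones.

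The members also varied with the respiratory chain. A respiratory chain mean was formed from 60 genes, of which 33 encode complex I, the NADH dehydrogenase, 12 complexes II to IV and 15 the ATP synthase. Its r was 0.549 with LONP1, 0.593 with TIMM17B and 0.475 with ABHD10, values reached by 1.75%, 1.22% and 2.97% of all probe sets. TIMM17B was higher by 0.122 ± 0.012 log2 units per SD of this mean (SE, n = 207, limma adjusted p = 6.4e-19). ABHD10 was higher by 0.117 ± 0.015 (adjusted p = 1.0e-11) and LONP1 by 0.080 ± 0.0088 (adjusted p = 2.6e-15). All 3 passed, in a fit where 38.1% of all tested probe sets did, 18.9% upward and 19.1% downward. In a fit of the brighter probe sets alone, to which the members belong, 55.4% passed, 29.3% upward and 26.1% downward.

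The mean itself moved with the arrays and with drip loss. It was -1.05 on the low-correlation arrays, against 0.138 on the others, and its r with drip loss was 0.280. Without the low-correlation arrays the slopes were 0.050 for LONP1, 0.088 for TIMM17B and 0.089 for ABHD10, with limma adjusted p from 7.3e-11 to 3.9e-07. With 5 principal components they were 0.043 (adjusted p = 0.0029), 0.112 (adjusted p = 3.6e-10) and 0.047 (adjusted p = 0.0926), so that TIMM17B kept most of its slope and ABHD10 no longer passed. With the respiratory chain mean as a covariate, the drip loss slopes were 0.028 for LONP1, 0.030 for TIMM17B and 0.058 for ABHD10.

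The members' r with separate parts of the chain was positive, and lower with principal components removed. LONP1 had r of 0.577 with complex I, 0.494 with complexes II to IV and 0.486 with ATP synthase. TIMM17B had 0.617, 0.525 and 0.543 with the same lists, and ABHD10 had 0.467, 0.459 and 0.461. Spearman's rho ran from 0.401 to 0.579 over these 9 relations, and each permutation p, raw and adjusted over the 9, was 1e-05. Without the 2 farthest animals r ran from 0.388 to 0.598, without the low-correlation arrays from 0.338 to 0.534, and centred within blocks from 0.40 to 0.630. With 5 principal components removed it ran from 0.126 to 0.516, with 0.278 for LONP1 and complex I, and ABHD10 with ATP synthase no longer passed (r = 0.126, permutation adjusted p = 0.0712). Complex I had the highest r of the lists with each of the members in each of these settings. For ABHD10 over all animals the lists were nearly level. Without the low-correlation arrays its r was 0.434 with complex I, 0.378 with complexes II to IV and 0.384 with ATP synthase. Whether the lists differ in r was not tested.

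Gene by gene, LONP1 had a positive r with 58 of the 60 respiratory chain genes (median 0.40), TIMM17B with 59 (median 0.431) and ABHD10 with 59 (median 0.342). For LONP1 the highest was the complex I subunit NDUFB8 at 0.571 and the lowest NDUFA5 at -0.076. For TIMM17B the highest was NDUFA2 at 0.610 and the lowest the ATP synthase subunit gene ATP5J at -0.100. For ABHD10 the highest was SDHD, an anchor subunit of complex II, at 0.514 and the lowest COX6A1, a cytochrome c oxidase subunit, at -0.0025. With 5 principal components removed the median r was 0.192 for LONP1, 0.332 for TIMM17B and 0.092 for ABHD10.

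The genes most like each member differed between the members. For LONP1 the highest r over 207 animals, among the brighter genes, was with ISOC2 (0.668), C6H1orf123 (0.659), TMEM203 (0.655), CDC37, a co-chaperone of HSP90 (0.643), and COQ9, which serves ubiquinone synthesis (0.640). For TIMM17B the list led with UBE2M, the enzyme that conjugates NEDD8 (0.743), followed by COPS7A, a subunit of the COP9 signalosome (0.715), the ubiquitin ligase STUB1 (0.698), GSTZ1 of tyrosine breakdown (0.697) and CCDC124 (0.675). With 5 principal components removed UBE2M still ranked first for TIMM17B, with r of 0.619, and COPS7A second, with 0.584. For ABHD10 values were lower, at 0.555 for SWSAP1, 0.538 for TMEM70, an assembly factor of ATP synthase, 0.537 for COQ5, another gene of ubiquinone synthesis, 0.536 for VDAC1, the main channel of the outer membrane, and 0.532 for ZNF32. SWSAP1 dropped to an r of 0.139 with the components removed. Among the 100 genes most like each member, respiratory chain genes numbered 4 for LONP1, 10 for TIMM17B and 5 for ABHD10, where they made up 1.23% of the 4883 genes ranked.

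In the RefSeq gene table of Sscrofa11.1, LONP1 lies on chromosome 2, TIMM17B on the X chromosome and ABHD10 on chromosome 13, so the members are not neighbours of each other. TIMM17B stands next to PQBP1, with which its r was 0.519, and to PCSK1N, with which it was 0.348. Without the low-correlation arrays these were 0.411 and 0.298. ABHD10 stands next to TAGLN3, with an r of 0.095. The direct neighbours of LONP1 were not measured by a single-symbol probe set.

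The other genes of the import path leaned the way of TIMM17B with drip loss, and respiratory chain genes did so too. Of 23 measured import genes other than TIMM17B, 11 rose with drip loss and 0 fell, and 22 had a positive slope, with a median slope of 0.042 log2 units per SD against 0.0023 over all tested probe sets. In the same fit 4.61% of all probe sets passed in either direction. In a fit of the brighter probe sets alone 10.6% passed, 4.82% upward, with a median slope of 0.0034. Of the 60 respiratory chain genes 24 rose and 0 fell, and 60 had a positive slope, with a median slope of 0.042. Whether the lists differ in slope was not tested. In the inner membrane, TIMM44, which tethers the import motor to the channel, rose by 0.054 ± 0.013 log2 units per SD (SE, n = 207, limma adjusted p = 0.0077). The translocase subunit ROMO1 rose by 0.057 ± 0.016 (adjusted p = 0.0202), TIMM21 of the same complex by 0.068 ± 0.020 (adjusted p = 0.0308) and TIMM22, the pore for carrier proteins, by 0.052 ± 0.014 (adjusted p = 0.0208). The receptor TIMM50 had a slope of 0.044 ± 0.017 (adjusted p = 0.122), and the slopes of DNAJC19 and AGK were 0.026 and 0.022 (adjusted p = 0.512 and 0.374).

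In the intermembrane space 6 of 8 genes rose, where 4.61% of all tested probe sets passed in either direction. They were the small chaperones TIMM8B (0.066 log2 units per SD, limma adjusted p = 0.0341), TIMM13 (0.058, adjusted p = 0.0320), TIMM10B (0.057, adjusted p = 0.0218) and TIMM10 (0.057, adjusted p = 0.0407), and the disulfide relay pair CHCHD4 (0.043, adjusted p = 0.0419) and GFER (0.036, adjusted p = 0.0391). TIMM8A had a slope of 0.034 and TIMM9 one of -0.035 (adjusted p = 0.420 and 0.125). In the outer membrane 1 of 8 rose, the small TOM subunit TOMM7, by 0.074 ± 0.019 (adjusted p = 0.0109). The next slopes there were 0.042 for the receptor TOMM70 and 0.042 for TOMM40L (adjusted p = 0.455 and 0.174).

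Of the 11 other measured proteases 0 passed with drip loss in limma, and 1 of them, IMMP2L of the inner membrane peptidase, had an unadjusted p under 0.05 (slope 0.025, adjusted p = 0.252). Their median slope was 0.013, and 4.61% of all tested probe sets passed in this fit. The largest slopes were those of the processing peptidase MIPEP, at 0.045 ± 0.029, and of ATP23, at 0.026 ± 0.016 (adjusted p = 0.397 and 0.377). Whether LONP1 differs from them in slope was not tested, and the peroxisomal relative LONP2, counted among the 11, had a slope of -0.013 ± 0.015. CLPP, another ATP-dependent protease of the matrix, was not measured by a single-symbol probe set.

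Among 8 mitochondrial chaperones 1 rose, where 4.61% of all tested probe sets passed in either direction. It was GRPEL1, the nucleotide exchange factor of the import motor's HSP70, with a slope of 0.051 ± 0.013 (adjusted p = 0.0096). The HSP70 itself, HSPA9, had a slope of 0.009 ± 0.013 (adjusted p = 0.773), and the folding chaperone HSPD1 had one of -0.019 ± 0.019 (adjusted p = 0.629). BCS1L and DNAJA3 had slopes of 0.045 and 0.036 (adjusted p = 0.0746 and 0.0768). Outside the 8 chaperones, STOML2, a membrane scaffold protein, rose by 0.044 ± 0.013 (adjusted p = 0.0368), and PHB2 had a slope of 0.023 (adjusted p = 0.275). PRDX5, the peroxidase from which ABHD10 removes acyl groups in human cells, had a slope of 0.049 ± 0.016 (adjusted p = 0.056), and 0 of 7 genes of this antioxidant list passed in limma, with 3 at an unadjusted p under 0.05.

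**Figure D4:**
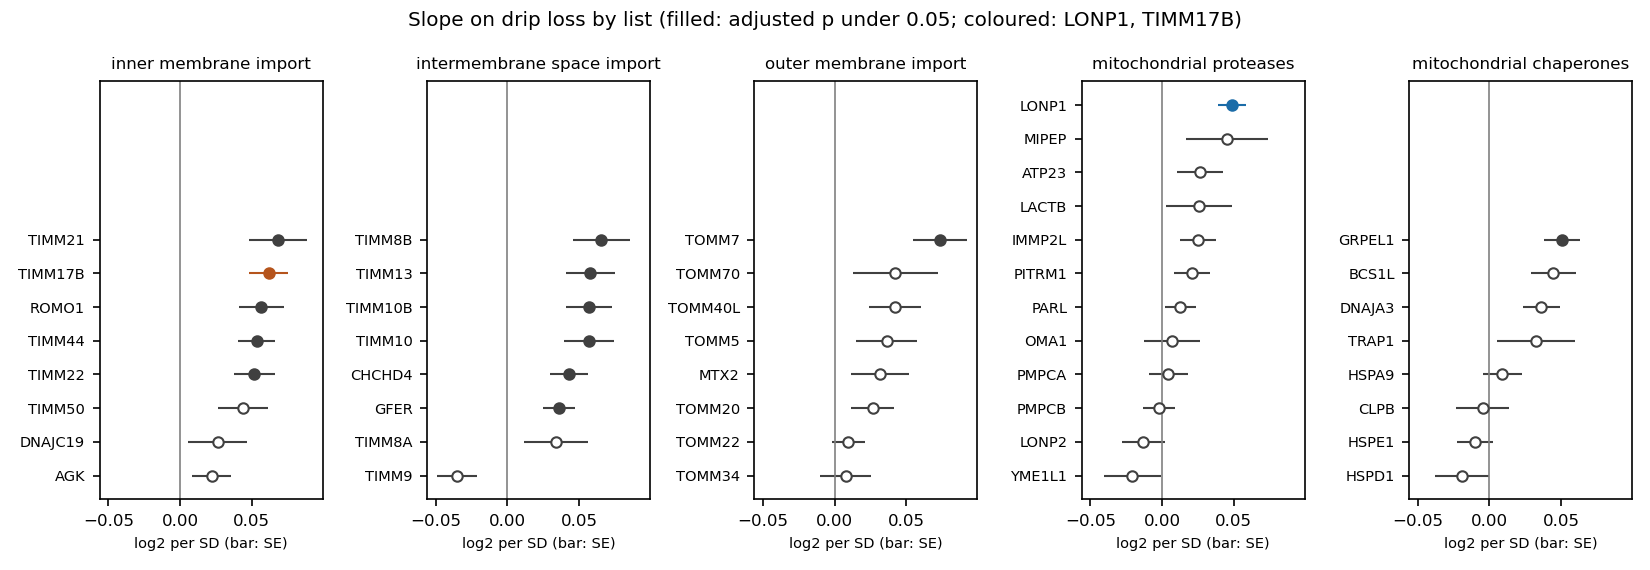
Slope on drip loss in log2 units per SD, with bars of 1 SE (n = 207), for each measured gene of the import, protease and chaperone lists. Filled points have a limma adjusted p under 0.05 over all probe sets, and coloured points are LONP1 and TIMM17B, which were chosen on this slope. Besides these 2 genes, filled points are 11 of the 23 other import genes, 0 of the 11 other proteases and 1 of the 8 chaperones.

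The calls of the other import genes were lost once blocks entered the fit or the low-correlation arrays were left out. With blocks in the fit 0 of the 23 passed in limma, with 12 at an unadjusted p under 0.05, and 0.623% of all probe sets passed. Without the low-correlation arrays 0 passed, with 11 unadjusted, and 0.831% of all probe sets passed. The share with a positive slope was 21 of 23 with blocks and 22 of 23 without those arrays, with median slopes of 0.036 and 0.025. Of the 60 respiratory chain genes 2 passed with blocks and 3 without those arrays, all upward. GRPEL1 had slopes of 0.036 and 0.040 in these fits (adjusted p = 0.170 and 0.0939), and STOML2 had slopes of 0.034 and 0.027 (adjusted p = 0.236 and 0.314), so that neither passed.

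For fat area 0 of the 23 import genes, 0 of the 11 proteases and 0 of the 8 chaperones passed in limma, with 1, 1 and 2 at an unadjusted p under 0.05. In that fit 0.121% of all tested probe sets passed. For the respiratory chain mean, 20 of the 23 import genes passed upward and 1 downward, against 38.1% of all probe sets and 55.4% of the brighter ones. The steepest were TIMM8B, at 0.231 ± 0.013 log2 units per SD of the mean (limma adjusted p = 4.7e-42), TOMM5, at 0.191 ± 0.017 (adjusted p = 8.8e-22), and TIMM13, at 0.189 ± 0.012 (adjusted p = 5.1e-34). TIMM9 fell by 0.044 ± 0.014 (adjusted p = 0.0062). Of the proteases other than LONP1, 8 of 11 passed upward, with a median slope of 0.045 and the steepest at 0.169 ± 0.027 for MIPEP (adjusted p = 1.9e-08). Of the chaperones 4 of 8 passed upward and 1 downward, while HSPD1, its partner HSPE1 and HSPA9 did not pass (slopes -0.0039, 0.013 and 0.0079).

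Markers of other cell types had low r with the members. The r of the members with the means of adipocyte (3 genes measured), macrophage (3), endothelial (5), fibroblast (3) and blood cell (4) markers lay between -0.170 and 0.119, and with 6 skeletal muscle markers between 0.084 and 0.135. The mean macrophage marker level lay between 5.95 and 7.44 log2 units in the high drip loss bin and between 5.69 and 7.15 in the low bin. That of adipocyte markers lay between 6.90 and 8.72 in the high bin and between 6.84 and 8.39 in the low bin. That of endothelial markers lay between 7.44 and 8.10 in the high bin (median 7.72) and between 7.22 and 8.12 in the low bin (median 7.81). Of the markers of other cell types 0 rose with drip loss in limma, where 4.61% of all tested probe sets passed. The only 1 that fell was ENG, of the 5 endothelial markers, by 0.068 log2 units per SD (adjusted p = 0.047). The call of ENG was lost with blocks (adjusted p = 0.203), without the low-correlation arrays (adjusted p = 0.139) and with 5 principal components (adjusted p = 0.871). The part of these markers in the members' slopes was not tested.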

How the data were processed

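Total RNA of muscle was labelled as biotinylated cRNA and hybridised to 1 Affymetrix Porcine Genome Array per animal, per the labels' protocols. GCOS 1.1.1 and PLIER are the tools named in the submitters' processing notes. What the authors deposited is a log2 value for each probe set. They ran from 4 to 15.32, with 1.43% at the floor, and scaling between arrays is not given in the sources used here. Precision is limited by the number of arrays.

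The table held 24123 probe sets, of which 188 were controls and 23935 were tested. Symbols came from the array annotation: 10069 probe sets carried 1 symbol, 198 several and 13668 none, and 9961 of the first matched the RefSeq table by gene number. Each probe set was regressed on drip loss, fat area or the respiratory chain mean (mean of z-scores, 1 probe set per gene, the brightest), in units of SD, using limma 3.58.1 (lmFit, eBayes; R 4.3.3). Two-sided p-values were Benjamini-Hochberg adjusted across the 23935, with a threshold of 0.05. Correlations used 100000 permutations (10000 for alternatives) in Python 3.11.15 with numpy 2.4.6. Intervals of slopes cover 95%. An array was low-correlation where its median r with the rest fell more than 3 scaled MAD under the typical value. The fits were tested on simulated data in which each probe set was drawn independently, while real probe sets vary together. Slopes of 0.05 log2 units per SD were recovered for 24% of changed probe sets with drip loss and 20% with fat area. For slopes of 0.1 these shares were 88% and 90%.

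The members and the gene lists were chosen with earlier results of these data known. Named genes were every import, protease and chaperone gene that passed for drip loss or fat area, the 3 largest drip loss slopes of a list where fewer passed, the 5 most alike genes per member and TIMM17A, TIMM23, TIMM44, TIMM50, CLPP, HSPD1, HSPA9, TFAM, PRDX5, PPARGC1A, ATF4 and DDIT3; 1 further gene of the rule is not reported here. Of these TIMM17A, TIMM23 and CLPP had no single-symbol probe set. Genes outside this rule, such as those at the ends of a range, were chosen after their values were seen.

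Each alternative changed a single choice. They were quantile normalization, brighter probe sets only, blocks or number series as covariate, either series alone, 5 principal components or the first, normal scores, without the 2 farthest animals, without the low-correlation arrays, without 13 arrays lacking spike-in signal, 3' to 5' control difference, trend and robust eBayes, the other trait, a component of the Y-linked transcripts, the respiratory chain mean, and averaging a gene's probe sets. The Y-linked component was a covariate for fat area only, and the respiratory chain mean for drip loss only.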

Additional observations from a re-analysis of the deposited data

How the results depend on the processing

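Of the correlations between the members 32 of 33 alternative values of Pearson r stayed on the same side of the threshold, and of those with respiratory chain lists 98 of 99. The exceptions, both with 5 principal components removed, were TIMM17B with ABHD10 (r = 0.063, permutation adjusted p = 0.356) and ABHD10 with ATP synthase (r = 0.126, adjusted p = 0.0712). Spearman's rho was not counted. For TIMM17B with ABHD10 it did not pass with 5 principal components removed (permutation adjusted p = 0.193) or in the higher series (0.218). In the higher series rho also did not pass for TIMM17B with complexes II to IV (permutation adjusted p = 0.0561). The same held there for ABHD10 with complex I (0.0925) and complexes II to IV (0.0627). The slope of ABHD10 on the respiratory chain mean with 5 principal components was 0.047 (limma adjusted p = 0.0926), and the other 38 alternative slopes on that mean stayed past the threshold. No fat area slope of a member passed under any of the 15 alternatives, and that of TIMM17B turned to 0.0036 in the higher series alone (adjusted p = 1). Drip loss slopes moved with 5 principal components to 0.022 for LONP1, 0.025 for TIMM17B and 0.041 for ABHD10, without the low-correlation arrays to 0.037, 0.046 and 0.065, with the respiratory chain mean to 0.028, 0.030 and 0.058, and in the higher series to 0.078 for LONP1 and 0.103 for ABHD10. The causes were not tested.

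Of all tested probe sets 4.61% passed for drip loss, against 0.623% with blocks, 0.823% in the lower series, 0 in the higher (1789 probe sets at an unadjusted p under 0.05 in limma), 0.0543% with 5 principal components, 2.43% with the 3' to 5' difference, 0.142% with the respiratory chain mean and 0.831% without the low-correlation arrays. For fat area 0.121% passed, against 0 in the higher series (978 unadjusted), 0.38% with 5 principal components and 0 with the Y-linked component (1383 unadjusted). For the respiratory chain mean 38.1% passed, against 12.6% in the higher series, 16.9% with 5 principal components and 21.9% without the low-correlation arrays. In fits of the brighter probe sets alone, 10.6% of these passed for drip loss, 0.167% for fat area and 55.4% for the respiratory chain mean. With blocks, 1 inner membrane import gene passed for drip loss, TIMM17B, which was chosen on this slope and from which nothing is read, and 0 intermembrane space, 0 outer membrane and 0 chaperone genes did in limma, and without the low-correlation arrays 0 of each. No paired analysis was possible because each animal gave 1 array and the labels give a single group.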

Other observations

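Listed regulators of mitochondrial biogenesis and stress did not run one way with drip loss. Of 8 measured genes of a list of biogenesis and stress regulators, 1 rose and 1 fell, where 4.61% of all tested probe sets passed in either direction. PPRC1, a coactivator of the PGC-1 family, fell by 0.115 ± 0.027 log2 units per SD (SE, n = 207), with a limma adjusted p of 0.0068. The stress response factor ATF4 rose by 0.041 ± 0.012 (adjusted p = 0.0297). In limma 0 of the 8 passed with blocks, without the low-correlation arrays or with 5 principal components. The adjusted p in these fits was 0.0934, 0.0759 and 0.791 for PPRC1, and 0.187, 0.284 and 0.805 for ATF4. PPARGC1A had a slope of -0.267 ± 0.087 (adjusted p = 0.051) and DDIT3 one of -0.141 ± 0.047 (adjusted p = 0.0586). TFAM, the packaging factor of mitochondrial DNA and a described substrate of LONP1, had a slope of -0.010 ± 0.022 (adjusted p = 0.850), while SSBP1, which binds single-stranded mitochondrial DNA, rose by 0.043 ± 0.014 (adjusted p = 0.0447). SSBP1 did not pass with blocks (adjusted p = 0.257), without the low-correlation arrays (adjusted p = 0.168), with 5 principal components (adjusted p = 0.554) or as the mean of its probe sets (adjusted p = 0.415). On the respiratory chain mean PPRC1 fell by 0.193 ± 0.025 (adjusted p = 1.4e-11), PPARGC1A fell by 0.243 ± 0.087 (adjusted p = 0.0187) and ATF4 rose by 0.091 ± 0.011 (adjusted p = 1.9e-13). With 5 principal components as covariates PPRC1 had a slope of 0.016 (adjusted p = 0.786) and PPARGC1A turned to 0.450 (adjusted p = 3.7e-05), while ATF4 had 0.041 (adjusted p = 0.0058). Without the low-correlation arrays PPRC1 still passed (-0.146, adjusted p = 2.0e-06) and PPARGC1A did not (-0.113, adjusted p = 0.434), and with blocks PPARGC1A did not pass either (adjusted p = 0.20). The causes were not tested.

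Of 11 measured alpha/beta hydrolases and depalmitoylases, among them ABHD10, which was chosen on this slope, 1 other gene passed for drip loss, where 4.61% of all tested probe sets did. ABHD5, the activator of adipose triglyceride lipase, fell by 0.085 ± 0.027 log2 units per SD (limma adjusted p = 0.0469). It passed without the low-correlation arrays (adjusted p = 0.0301), and not with blocks (adjusted p = 0.167) or 5 principal components (adjusted p = 0.816). On the respiratory chain mean its slope was -0.022 ± 0.028 (adjusted p = 0.576). PPRC1, SSBP1 and ABHD5 were named after their values were seen.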
